A study of Mus musculus with 53 samples.

Results

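Lungs of mice after 2 weeks of forced air, the sham arm of a cigarette smoke study, were compared with lungs of untreated mice. Forced air means that air in place of smoke was given through the nose-only exposure apparatus, here for 2 hours a day on 5 days of the week. Both groups were female C57BL/6 mice, an inbred laboratory strain, and the labels name no mutant allele and no agent other than the air. The forced air group was labelled with a time of 2 weeks and the untreated group with a time of 0. The 12 arrays, 6 of forced air and 6 of untreated lungs, were chosen by their group and time labels out of 53 arrays in 9 groups. The wider study followed smoke, forced air and smoke cessation in the small lobe of the lung, with tissue kept in RNALater, put in random order before RNA extraction and amplified from 50 ng of total RNA. The values are MAS5 signals, a summary of the probes of each probe set in arbitrary units, on arrays that were all scaled to a trimmed mean of 150.0. Tests were made on log2(signal + 16), so that a log2 change understates the change of a dim gene, and every change is forced air minus untreated.

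The labels do not say that each array holds a separate mouse, so the p-values measure the spread between arrays. In the limma fits, unless stated otherwise, that spread was pooled for each gene over all groups of the series. It was not taken from the compared arrays alone. The labels give no time of day of sampling and no age beyond the exposure time. Hour of sampling, age, handling and the exposure itself therefore cannot be told apart.

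The circadian clock supplies several of the genes with the largest changes between these lungs, beside matrix, muscle and other genes. In mammals the proteins ARNTL (also called BMAL1) and CLOCK, or its relative NPAS2, bind together to E-box sequences and switch on the Per and Cry genes, whose proteins in turn block that pair. The same pair drives the REV-ERB genes Nr1d1 and Nr1d2, whose proteins repress Arntl through ROR elements, and the transcription factors DBP, TEF and HLF, which act through D-boxes, so that in lung as in liver the Arntl and Npas2 transcripts peak at the opposite time of day from those of Per and Dbp. Other genes described here encode the elastic fibre, which is built from elastin and cross-linked by lysyl oxidases, and chaperones, which fold proteins and are raised by heat or protein damage.

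RNA integrity was examined first, because the arrays carry control probe sets at the 3′ and 5′ ends of Gapdh and actin, and a higher 3′/5′ ratio is the sign of shorter or less fully copied RNA. The Gapdh ratio had a lowest, median and highest value of 1.61, 1.85 and 2.08 in forced air lungs, against 1.501, 1.57 and 1.97 in untreated lungs. The ranges overlapped through untreated replicate 2 alone, since the other 5 untreated arrays lay between 1.501 and 1.57. The difference of the means was 0.226 (exact permutation test, two-sided, p = 0.0541, where 0.00216 is the smallest p that 6 against 6 allow). Without untreated replicate 2 it was 0.297 (exact p = 0.00433). That removal leaves the ranges apart, so this p is the smallest that 6 against 5 allow and was fixed by the array left out. The actin ratio was 1.83, 2.04 and 2.55 in forced air lungs, against 1.72, 1.85 and 2.88 in untreated lungs (exact p = 0.554, and 0.0173 without untreated replicate 2, which held the highest value). Because that array was singled out by its own ratios, neither p without it is separate evidence of a difference. The share of probe sets called present, 69.7% to 74.4% in forced air lungs and 71.9% to 74.3% in untreated lungs, did not pass the same test (exact p = 0.351). Across the 53 arrays of the series the Gapdh ratio ran from 1.40 to 2.42 and the share present from 67.5% to 76.2%. Sftpc, Ager, Scgb1a1, Pecam1 and Foxj1, which mark alveolar type 2, alveolar type 1, club, endothelial and ciliated cells, were present on all 12 arrays, as the label of lung asks. Myh6 of heart muscle, Adipoq of fat and the thymocyte gene Dntt were also present on all 12, whereas the basal cell gene Krt5 and the cartilage gene Col2a1 were present on 0.

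Of 15030 genes tested, 3491 (23.2%) were called at a limma adjusted p under 0.05. Among them 1629 (10.8%) were higher and 1862 (12.4%) lower in forced air lungs, and the median size of a called change was only 0.28 on the log2 scale. In 1076 genes (7.16%) the 6 forced air arrays did not overlap with the 6 untreated arrays. With both 3′/5′ ratios as covariates 1557 genes (10.4%) were called, 4.94% being higher and 5.42% lower, and without the 4 arrays whose Gapdh ratio exceeded 1.9 (forced air replicates 3, 4 and 6 and untreated replicate 2) 1554 genes (10.3%) were called, 5.95% being higher and 4.39% lower. All 3491 changes kept their sign in both of these fits, and 1476 and 1425 of them were called again. Both fits reuse arrays on which the calls were made, so the kept signs are no independent check. With only these 12 arrays in the fit and no covariate 2799 genes were called. With the ratios as covariates and only these 12 arrays in the fit, 3 genes were called and 3365 of the 3491 changes kept their sign. Because so large a share of all genes was called, the sizes of the changes and their stability to the ratios say more than the calls, and the adjusted p with the ratios as covariates is given below for each named gene that loses its call, with the change itself where that moved by more than 1.5 times. Counts of a gene list are followed by their share of the tested members in percent, which is to be read against 10.8% higher and 12.4% lower over all genes, or 4.94% and 5.42% with the ratios. The sample titles end in a number whose meaning the labels do not give, and it fell into 3 ranges across the series. Only the middle range, with 4 forced air and 3 untreated arrays, and the highest range, with 2 of each, hold both groups, and changes within these ranges are given in that order.

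The positive limb of the clock was low in forced air lungs. Arntl fell more than any other named gene, together with its partners Npas2 and Clock, and among the genes of the repressing side Per2, Per3 and Cry1 rose. Of 13 core clock genes tested 4 rose (30.8%) and 3 fell (23.1%), and the same counts held with the ratios as covariates. Signals of a gene are given in the text that follows as the lowest, the median and the highest of the 6 arrays of a group.

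Arntl, which encodes BMAL1, a member of the activating pair, had signals of 14.6, 23.2 and 26.5 in forced air lungs, against 51.1, 107 and 193 in untreated lungs. The highest forced air array thus lay below the lowest untreated array, and the untreated arrays were spread widely among themselves. The log2 change was -1.66 (SE 0.15, limma adjusted p = 1.16e-11), or 0.316 times the untreated value of signal + 16, with -1.35 and -2.06 within the title ranges. Npas2, whose protein can take the place of CLOCK, had 25.6, 38.6 and 41.6 in forced air lungs, against 81.5, 125 and 213 in untreated lungs, again without overlap (log2 change -1.49, SE 0.14, adjusted p = 9.15e-11, and -1.34 and -1.66 within the ranges). Clock itself, encoding the partner of ARNTL, fell less, with 319, 343 and 370.1 in forced air lungs, against 470.3, 539 and 664 in untreated lungs (log2 change -0.67, SE 0.06, adjusted p = 5.95e-12). Its groups did not overlap either, and the within-range changes were -0.58 and -0.83.

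On the repressing side, Per2 showed 635, 703 and 751 in forced air lungs, against 245, 371 and 523 in untreated lungs. Every forced air array lay above every untreated array (log2 change 0.94, SE 0.12, adjusted p = 8.73e-08). Cry1, which encodes a strong blocker of the ARNTL pair, had 404, 467 and 498 in forced air lungs, against 219, 232 and 346 in untreated lungs, with no overlap (log2 change 0.77, SE 0.11, adjusted p = 2.27e-06). Per3 rose with an overlap caused by untreated replicate 1, the array with the lowest Arntl signal. Its signals were 824, 975 and 1039 in forced air lungs, against 448, 593 and 914 in untreated lungs (log2 change 0.63, SE 0.09, adjusted p = 1.22e-06). Nr1d2 rose slightly (log2 change 0.27, SE 0.07, adjusted p = 0.00208), while its relative Nr1d1 gave 180.2, 222 and 235 in forced air lungs, against 135, 228 and 299.7 in untreated lungs, where the untreated values enclosed all forced air values (log2 change 0.01, adjusted p = 0.981). Per1 (0.42, adjusted p = 0.186) and Cry2 (0.12, adjusted p = 0.225) did not pass the test. Within the ranges the changes were 0.64 and 1.24 for Per2, 0.74 and 0.74 for Cry1 and 0.45 and 0.84 for Per3, and for Per1, whose sign differed between them, -0.12 and 0.60.

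**Figure D1:**
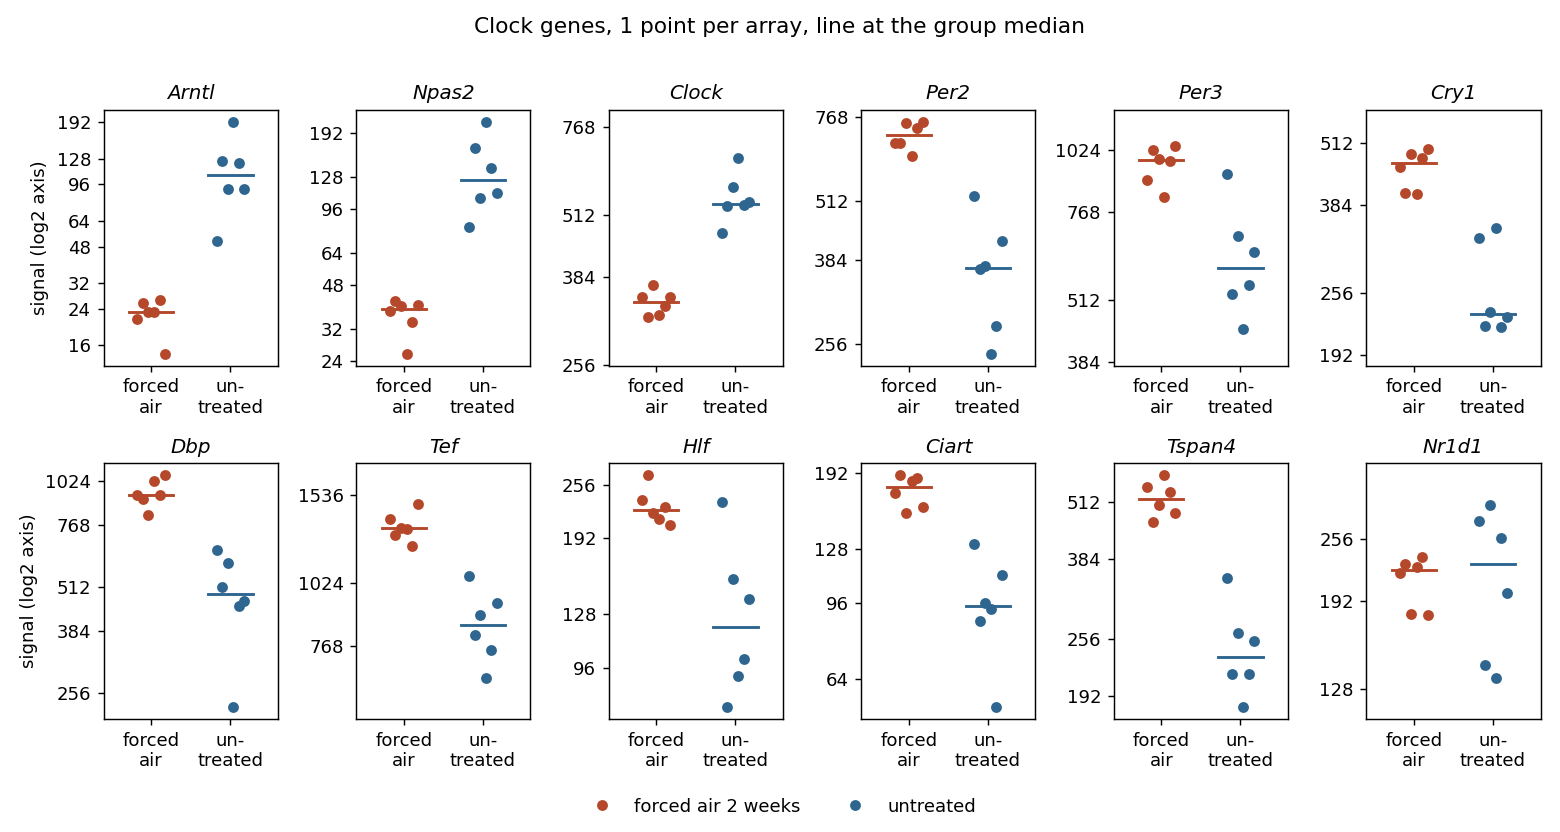
MAS5 signal of 12 clock genes on a log2 axis, with 1 point for each of the 6 forced air (left) and 6 untreated (right) arrays and a line at each group's median. Arntl, Npas2 and Clock lie lower in forced air lungs without overlap, Per2 and Cry1 lie higher, and Nr1d1 overlaps throughout, with untreated arrays more spread than forced air arrays in most panels.

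The promoters of a few of these genes are printed as examples of the elements named above. They come from the RefSeq annotation of mouse build GRCm38.p6, 5′ to 3′ on the strand of the gene. Matches were sought on both strands in windows from 250 bases before to 50 bases after each annotated start, and 18 of 22 clock genes searched had a window. The E-box was searched as CACGTG, held by 7.15% of 32851 promoter windows, the E-box variant as CACGTT (4.685%), the D-box as TTANGTAA (2.323%), the ROR element by its consensus of GGTCA behind an A-rich flank (0.606%) and the heat shock element by its alternating GAA and TTC units (0.603%). These shares are per window, while some genes had several windows. An E-box was found in 6 of the 18 clock genes, Per1, Cry1, Tef, Ciart, Bhlhe41 and Tspan4, of which Per1 and Bhlhe41 were not called. Arntl, Npas2, Clock, Per3, Nr1d2, Dbp and Hlf were called and held no E-box in their windows. Per2 was not among the genes with a window. Whether element and change go together was not tested. Ciart, a clock-controlled repressor that rose, carried 3 E-boxes, 116, 58 and 44 bases before its start, in capitals in the 250 bases before the start at chr3:95882229-95882478 on the minus strand.
Ciart: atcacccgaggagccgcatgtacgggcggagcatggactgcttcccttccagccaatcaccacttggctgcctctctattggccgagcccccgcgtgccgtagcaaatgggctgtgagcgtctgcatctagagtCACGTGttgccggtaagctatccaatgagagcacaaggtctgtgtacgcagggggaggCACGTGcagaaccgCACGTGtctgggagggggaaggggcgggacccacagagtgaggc
Cry1 carried an E-box 60 bases before its start and the variant, read from the other strand, 79 bases before it, both in capitals in the 250 bases at chr10:85185055-85185304 on the minus strand.
Cry1: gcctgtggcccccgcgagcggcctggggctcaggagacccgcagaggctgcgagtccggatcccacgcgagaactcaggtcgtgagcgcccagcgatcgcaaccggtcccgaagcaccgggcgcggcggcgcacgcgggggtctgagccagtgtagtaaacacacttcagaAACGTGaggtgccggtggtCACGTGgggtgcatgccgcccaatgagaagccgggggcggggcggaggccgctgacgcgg
Per3 held a pair of D-boxes, the first 205 bases before its start, both in capitals in the 250 bases at chr4:151044666-151044915 on the minus strand.
Per3: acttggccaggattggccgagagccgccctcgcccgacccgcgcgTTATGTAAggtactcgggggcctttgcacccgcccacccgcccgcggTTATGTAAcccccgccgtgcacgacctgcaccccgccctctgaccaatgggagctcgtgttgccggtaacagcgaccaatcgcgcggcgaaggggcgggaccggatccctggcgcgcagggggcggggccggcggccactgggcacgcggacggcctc
Arntl, the gene with the deepest fall, held a ROR element 27 bases after the second of its annotated starts, in capitals in the 30 bases at chr7:113207528-113207557 on the plus strand.
Arntl: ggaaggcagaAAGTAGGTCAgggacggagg
These matches describe the letters of the windows and say nothing of which factor was bound in these lungs.

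Most output genes of the clock went the way of Per2. Of 14 tested 8 rose (57.1%) and 0 fell, with and without the ratios as covariates, and the median change was 0.39 against -0.03 over all genes tested. Called or not, 11 of the 14 were higher and 3 lower, against 6579 higher and 8451 lower of 15030 genes tested. Dbp, the D-box factor with the best known daily swing, had signals of 818, 937 and 1066 in forced air lungs, against 233, 489 and 652 in untreated lungs, without overlap (log2 change 1.00, SE 0.14, adjusted p = 1.43e-06, with 0.76 and 1.37 within the ranges). Tef showed 1217, 1318 and 1473 in forced air lungs, against 661, 844 and 1059.7 in untreated lungs, also without overlap (log2 change 0.65, SE 0.09, adjusted p = 7.54e-07). For Hlf, the remaining member of that family, the groups overlapped, with 207, 223 and 269 in forced air lungs, against 78.0, 120.03 and 233 in untreated lungs (log2 change 0.79, SE 0.14, adjusted p = 3.93e-05). Untreated replicate 1 supplied the highest untreated value of Tef and of Hlf. Ciart had 156, 178 and 190.1 in forced air lungs, against 54.9, 94.4 and 131.2 in untreated lungs, so that all forced air values were higher (log2 change 0.81, SE 0.14, adjusted p = 4.67e-05). Tspan4, a tetraspanin of the cell membrane with a daily rhythm in many mouse tissues, had 463, 519.9 and 586 in forced air lungs, against 181, 234 and 349 in untreated lungs, with no overlap and the smallest adjusted p among the output genes (log2 change 1.06, SE 0.09, adjusted p = 2.92e-12). Wee1, a kinase that delays cell division, rose by 0.57, the repressor Bhlhe40 by 0.43 and Coq10b, which acts with coenzyme Q, by 0.34. Nfil3, which competes with the D-box activators, did not pass the test (-0.24, adjusted p = 0.211).

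Sphk2, a sphingosine kinase gene, rose more than any other named gene, but its annotated span overlaps that of Dbp in the RefSeq annotation, and its probe sets disagreed. On the brighter probe set the signals were 508, 564 and 669.6 in forced air lungs, against 128, 249.8 and 365 in untreated lungs (log2 change 1.24, SE 0.15, adjusted p = 4.82e-08). The other kept probe set of Sphk2 fell by 0.26 on the log2 scale (SE 0.06, limma adjusted p over all probe sets = 0.00244), so no direction for the gene can be given.

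The untreated lungs differed more among themselves than the forced air lungs in these genes. In 24 of the 27 genes of the clock lists (88.9%) the SD of the log2 values was larger in untreated lungs, with a median of 0.13 in forced air lungs and 0.29 in untreated lungs. Over all genes tested the untreated SD was larger in 50.9%, with medians of 0.13 in both groups. Within the 6 untreated arrays alone, the order of the arrays by Arntl was the order by Npas2 (Pearson r = 0.971, Spearman rho = 1, and r = 0.949 without replicates 1 and 4, the arrays farthest from the median of Arntl) and the reverse of the order by Per3 (r = -0.985, rho = -1, and -0.966 without them) and Tspan4 (r = -0.989, rho = -1, and -0.987). Each of these had an exact permutation p of 0.00278 for r and for rho, the smallest that 6 arrays allow, and 0.0111 after Benjamini-Hochberg adjustment over the 16 relations computed, which were chosen after the values were seen. Cry1 gave r = -0.007 and rho = -0.086 with Arntl over the 6 untreated arrays (exact p = 0.944 and 0.919) but r = -0.956 without the same pair of arrays. Clock gave r = 0.844 and rho = 0.429 (exact p = 0.0667 and 0.419) and r = -0.727 without them, and the Gapdh 3′/5′ ratio r = 0.080 and rho = -0.257 (exact p = 0.867 and 0.658) and r = 0.659 without them. For these 3 measures the value thus depends on replicates 1 and 4, and neither a relation nor its absence is shown. Elastin gave r = 0.965 (exact p = 0.0167, adjusted 0.0333) and rho = 0.829 (exact p = 0.0583, adjusted 0.0933) with Arntl, and r = 0.520 without the same arrays, so that relation rests on them. The title ranges hold at most 3 untreated arrays, too few to repeat any of this within a range.

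**Figure D2:**
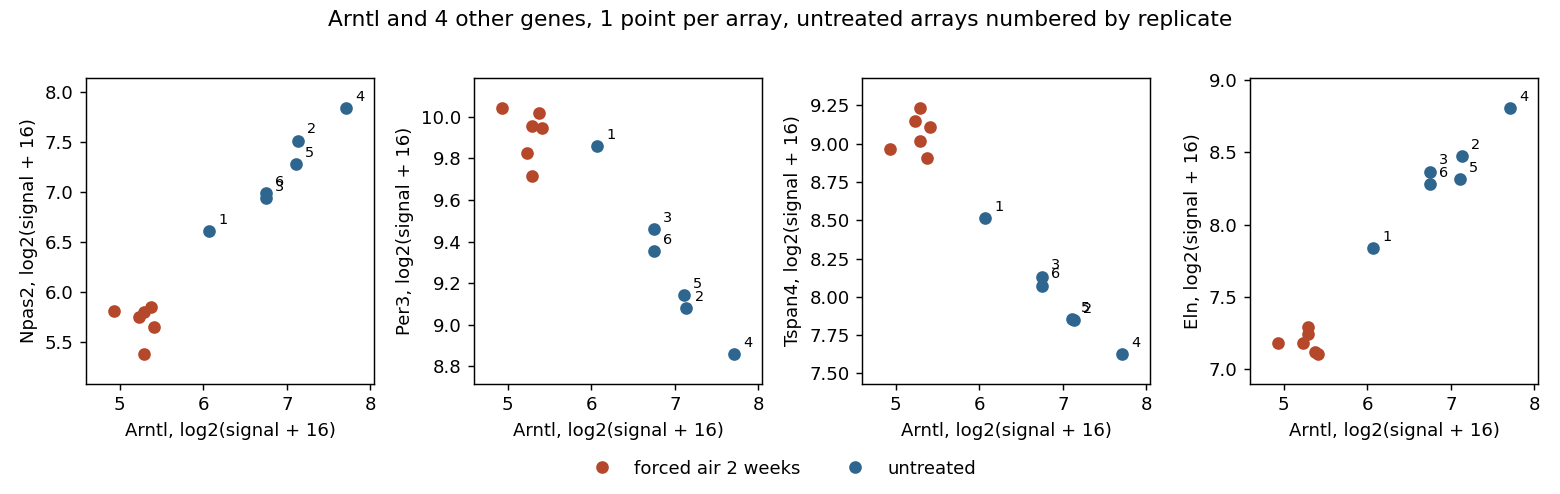
Arntl on the x axis against Npas2, Per3, Tspan4 and Eln on the y axes, all as log2(signal + 16), with 1 point per array and the untreated arrays numbered by replicate. The 6 forced air arrays form a tight group at low Arntl, while the 6 untreated arrays are strung out from replicate 1, the nearest to forced air, to replicate 4, the farthest.

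Among matrix genes, elastin and both lysyl oxidase genes named here fell, while other genes of the elastic fibre rose or were not called. Of 29 fibroblast and extracellular matrix genes tested 8 fell (27.6%) and 3 rose (10.3%), and with the ratios as covariates 7 fell (24.1%) and 2 rose (6.9%). Eln, which encodes elastin, had signals of 121.6, 129 and 140.9 in forced air lungs, against 213, 308 and 432 in untreated lungs. The forced air values were close together and all below the untreated ones (log2 change -1.16, SE 0.11, adjusted p = 2.4e-11, and -0.99 and -1.44 within the ranges). Lox, a lysyl oxidase that cross-links elastin and collagen, had 185, 236 and 272 in forced air lungs, against 394, 498 and 571 in untreated lungs, without overlap (log2 change -1.05, SE 0.10, adjusted p = 9.15e-11, and -1.09 and -1.04 within the ranges). Loxl1, the lysyl oxidase needed to renew elastic fibres, fell by 0.67 (SE 0.11, adjusted p = 2.05e-05), with 5 of the 6 forced air arrays below all untreated arrays. Mfap4, a protein of the elastic fibre itself, rose by 0.28 (SE 0.07, adjusted p = 0.00282). Fbln5, the fibulin that guides elastin assembly, rose by 0.20 on its brightest probe set (SE 0.05, adjusted p = 0.00238, and 0.0636 with the ratios), while the more variable probe set of the gene gave -0.12, so its direction is not settled.

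Among the collagens, Col1a1 of the fibrillar type had 418, 491 and 534 in forced air lungs, against 567.6, 878 and 977 in untreated lungs, without overlap (log2 change -0.75, SE 0.11, adjusted p = 1.29e-06). Col14a1 fell by 0.46, Col15a1 by 0.33 and Col6a3 by 0.24, and the calls of Col14a1 and Col6a3 were lost with the ratios as covariates (adjusted p = 0.0753 and 0.237), that of Col6a3 also without any 1 of 10 arrays (up to 0.143). Spon2, a secreted matrix protein, fell by 0.93 (SE 0.15, adjusted p = 1.93e-05), but it was called present on only 3 of the 6 forced air arrays, so its level there is near background. Tcf21, a transcription factor of lung fibroblasts, rose by 0.41 (SE 0.09, adjusted p = 0.000722). Adamts4, a protease that cuts matrix proteoglycans, had 10.8, 12.3 and 19.2 in forced air lungs, against 21.7, 51.3 and 67.1 in untreated lungs, with no overlap (log2 change -1.04, SE 0.19, adjusted p = 6.47e-05). In bulk tissue fewer cells of a type and less RNA per cell cannot be told apart, here or for the cell type markers that follow.

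**Figure D3:**
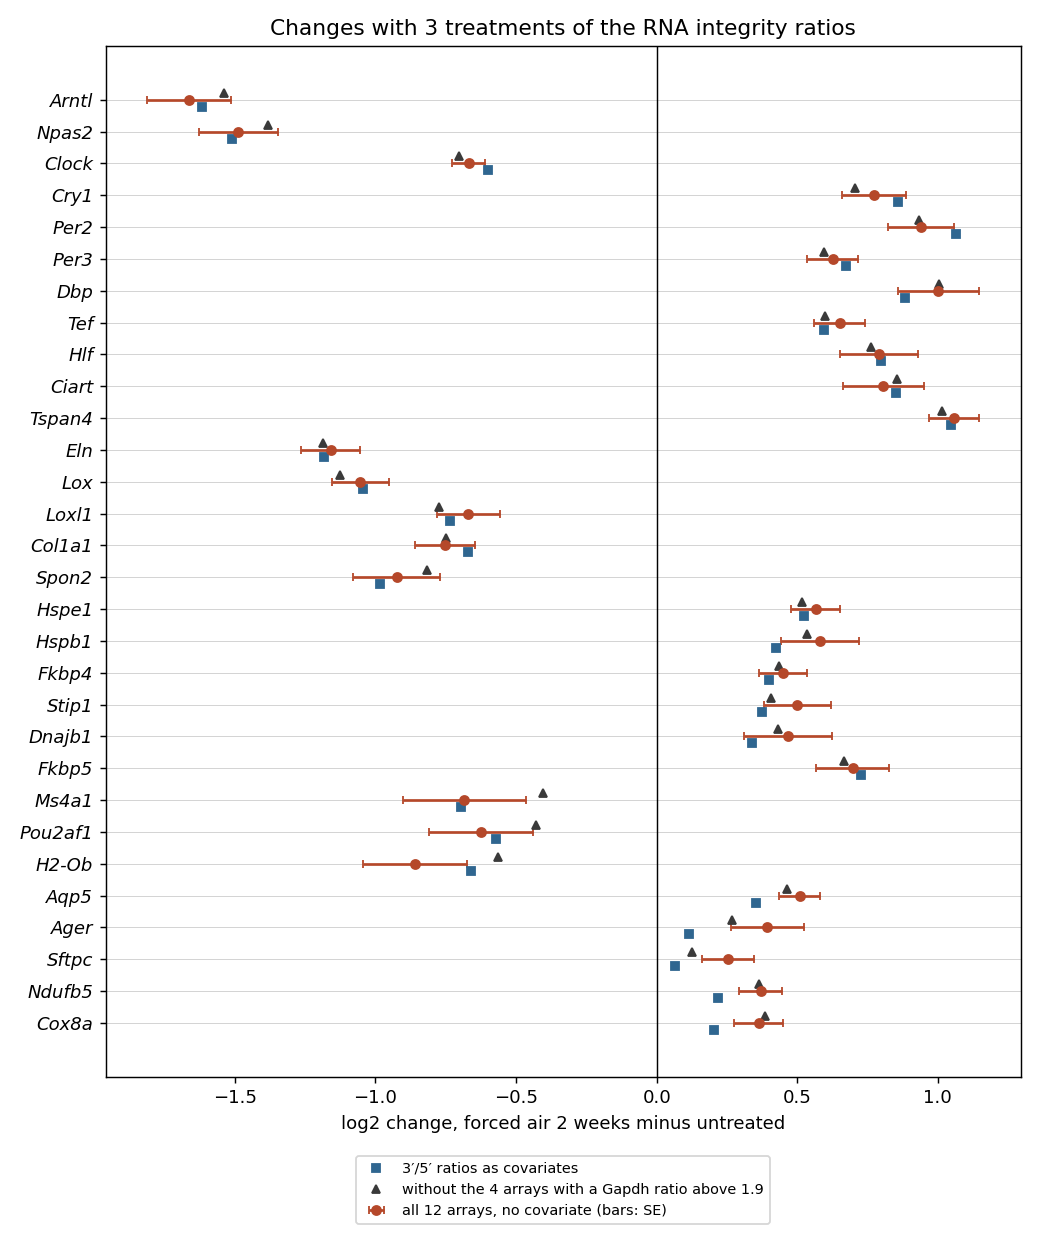
Log2 change, forced air 2 weeks minus untreated, of 30 genes with all 12 arrays and no covariate (circles, bars of 1 SE), with both 3′/5′ ratios as covariates (squares) and without the 4 arrays whose Gapdh ratio exceeded 1.9 (triangles). Arntl, Npas2, Clock, Eln and Lox keep their size under all 3, whereas Ager, Sftpc, Ndufb5 and Cox8a move towards 0 with the covariates. Ndufb5 and Cox8a keep their size without the 4 arrays.

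Chaperones rose moderately. Of 21 heat shock proteins tested 12 rose (57.1%) and 0 fell, with a median change of 0.37, and 7 rose with the ratios as covariates and 5 without the 4 arrays of high Gapdh ratio. The summed signal of the list was 18431 to 25456 in forced air lungs, against 14884 to 19994 in untreated lungs. Hspe1, the lid of the mitochondrial chaperonin, had 1040.2, 1119 and 1308 in forced air lungs, against 630.2, 821 and 905 in untreated lungs, without overlap (log2 change 0.57, SE 0.09, adjusted p = 4.14e-06). Its partner Hspd1, the chaperonin ring itself, had 702, 785 and 893 in forced air lungs, against 504, 643 and 673 in untreated lungs, also without overlap (log2 change 0.37, SE 0.08, adjusted p = 0.00105). Fkbp4, an HSP90 cochaperone of steroid receptors, was separated as well, with 241, 278 and 304 in forced air lungs, against 169, 199.7 and 225 in untreated lungs (log2 change 0.45, SE 0.09, adjusted p = 0.000146). The small heat shock protein Hspb1 (0.58, adjusted p = 0.00192) and the HSP70-HSP90 adaptor Stip1 (0.50, adjusted p = 0.00188) rose with overlap. The HSP70 partners Dnajb1 (0.47), Dnaja1 (0.44) and Hsph1 (0.35) rose too, but with the ratios as covariates the changes were 0.34, 0.26 and 0.19 and the calls were lost (adjusted p = 0.186, 0.215 and 0.293) and without any 1 of 4, 3 and 4 of the arrays, untreated replicates 3 and 5 and forced air replicate 6 among them each time (up to 0.102, 0.0901 and 0.127). The classical heat-inducible pair Hspa1a (0.44, adjusted p = 0.311) and Hspa1b (0.61, adjusted p = 0.13, and 0.40 with the ratios), near-identical copies whose signals cannot be told apart with certainty, did not pass the test. Cirbp, an RNA-binding protein induced by cold, fell by 0.37 (SE 0.12, adjusted p = 0.0232, and 0.219 with the ratios as covariates), and lost its call without untreated replicate 2, 3 or 5 or forced air replicate 3 (up to 0.0686).

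The promoter of Hspe1 is shown because that gene had the firmest rise among the chaperones. Heat shock elements were found in 3 chaperone genes, Hspe1, Hspd1 and Hsph1, of the 38 genes searched. Of these 38 genes 30 had a window, and no matrix gene named here was among them. The windows of Hspe1 and Hspd1 overlap on opposite strands, and their matches are the same bases. In Hspe1 there were 2 overlapping matches, starting 89 and 84 bases before its start, in capitals in the 250 bases at chr1:55087898-55088147 on the plus strand.
Hspe1: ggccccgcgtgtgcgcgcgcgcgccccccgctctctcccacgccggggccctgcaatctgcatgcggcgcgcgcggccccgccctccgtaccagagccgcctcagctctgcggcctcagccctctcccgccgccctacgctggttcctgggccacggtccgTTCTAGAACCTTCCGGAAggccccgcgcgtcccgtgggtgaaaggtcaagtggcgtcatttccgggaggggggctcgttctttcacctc

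The unfolded protein response of the endoplasmic reticulum moved in the same direction. Of 20 genes tested 9 rose (45%) and 0 fell, and 4 rose (20.0%) with the ratios as covariates and 5 without forced air replicate 4. Herpud1, which helps to degrade misfolded proteins, had 1045, 1129 and 1303 in forced air lungs, against 717, 820.3 and 965 in untreated lungs, without overlap (log2 change 0.49, SE 0.07, adjusted p = 3.95e-07). Xbp1, the transcription factor of this response, rose by 0.35 (SE 0.05, adjusted p = 2.7e-06) and the secreted factor Manf by 0.37 (SE 0.08, adjusted p = 0.000474). Pdia4, a disulfide isomerase, rose by 0.36, a call that was lost with the ratios (adjusted p = 0.125) and without any 1 of 7 arrays, the change being 0.18 without untreated replicate 2 (adjusted p = 0.237). Fkbp11, a folding enzyme of secretory cells outside that list, had 79.2, 96.9 and 118 in forced air lungs, against 37.2, 47.3 and 65.0 in untreated lungs, the groups being separate (log2 change 0.79, SE 0.10, adjusted p = 6.93e-08).

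Genes of the glucocorticoid response, which corticosterone raises in mouse lung, were mixed. Of 23 tested 6 rose (26.1%) and 1 fell (4.35%), and with the ratios as covariates 2 rose (8.7%) and 1 fell. Fkbp5, a cochaperone that is a standard readout of the receptor, had 105.5, 133 and 218 in forced air lungs, against 55.0, 82.5 and 96.8 in untreated lungs, without overlap (log2 change 0.70, SE 0.13, adjusted p = 9.59e-05). Klf15 rose by 0.42 (adjusted p = 0.0219, and 0.109 with the ratios) and the metallothionein Mt2 by 0.33 (adjusted p = 0.0416, and 0.22 with the ratios, adjusted p = 0.299). Those calls were lost without any 1 of 4 and 7 arrays (adjusted p up to 0.0945 and 0.155). Tsc22d3 (0.28, adjusted p = 0.0523) and Zbtb16 (0.22, adjusted p = 0.711, and 0.61 with the ratios), also direct targets of the receptor, did not pass the test. Cdkn1a, an inhibitor of cell division, fell by 0.55 (SE 0.11, adjusted p = 0.000319). Without untreated replicate 2, 11 members of this list rose. Without forced air replicate 6 or untreated replicate 3, 3 rose, and without forced air replicate 4 or untreated replicate 4 or 5, 2 rose, with 1 fall each time. Immediate early genes, which answer within minutes to a stimulus, gave 1 rise and 1 fall among 23 (4.35% each, below the shares over all genes), 0 of either with the ratios as covariates, and the rise alone without forced air replicate 1 or 6 or untreated replicate 1, 3 or 6. Fos (-0.15, adjusted p = 0.468) and Egr1 (-0.10, adjusted p = 0.725) were not called.

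**Figure D4:**
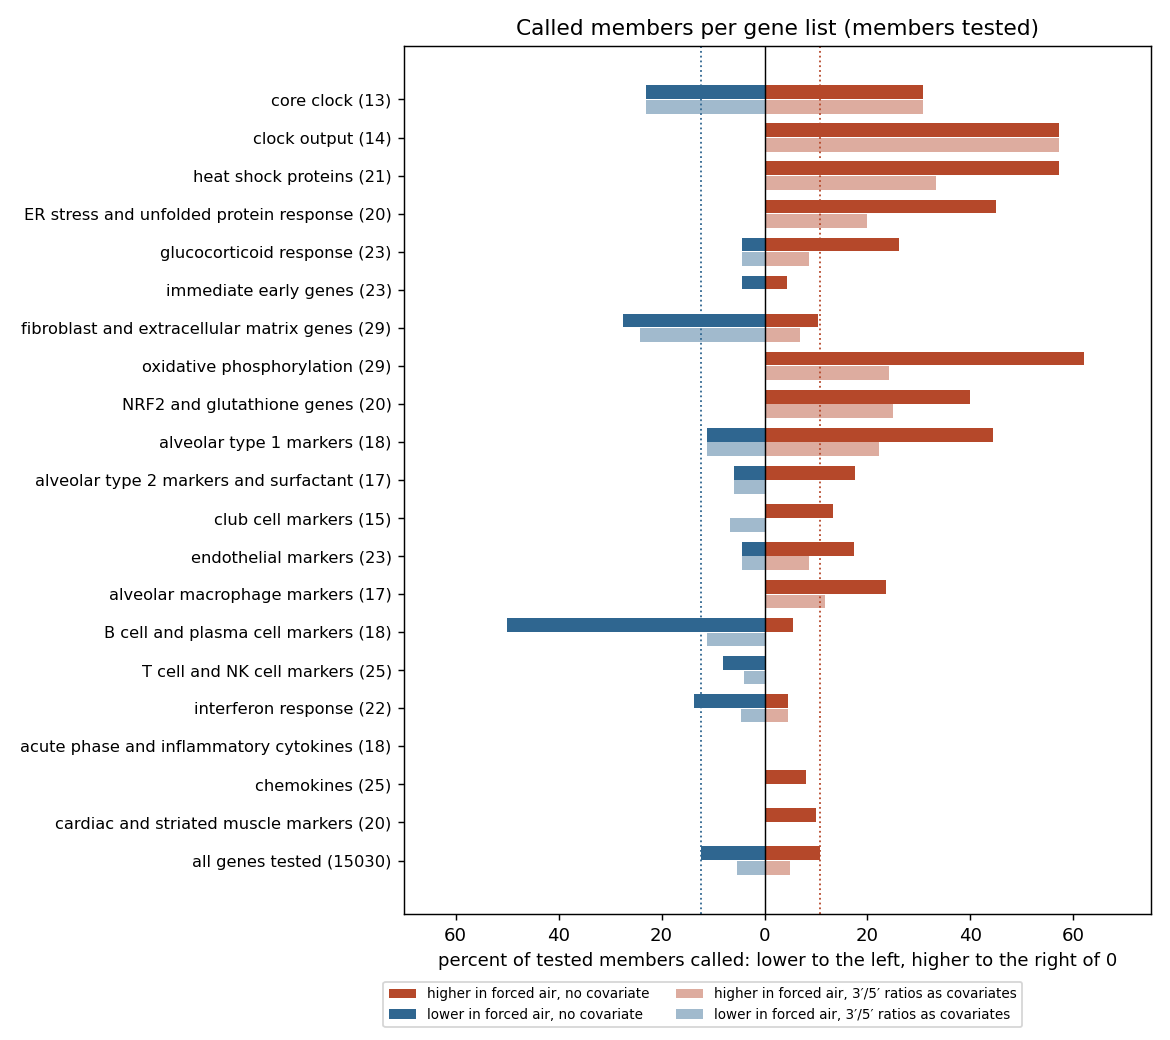
Percent of the tested members of 20 gene lists, and of all genes tested, that were called higher (right of 0) or lower (left of 0) in forced air lungs, without a covariate (dark) and with both 3′/5′ ratios as covariates (light); the dotted lines mark 10.8% and 12.4%, the shares over all genes. The bars of the clock lists have the same length in both fits, and those of oxidative phosphorylation, heat shock proteins and B cells shorten.

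B cell markers fell in the fit of all arrays, with counts that depended on single arrays. Of 18 tested 9 fell (50.0%) and 1, Vpreb3 (0.43, adjusted p = 0.0394, 0.103 with the ratios and up to 0.118 without any 1 of 7 arrays), rose, with a median change of -0.52. The number that fell was 2 with the ratios as covariates (11.1%) and 0 without the 4 arrays of high Gapdh ratio. It was 3 without forced air replicate 3 or without untreated replicate 5, 5 without forced air replicate 6, 6 without forced air replicate 5 or untreated replicate 3 or 6, and 12 without forced air replicate 2. The summed signal of the list was 4080 to 6813 in forced air lungs, against 5565 to 7539 in untreated lungs. H2-Ob, a chain of the B cell protein that tunes class II antigen loading, had 185, 244 and 448 in forced air lungs, against 402, 469.5 and 756 in untreated lungs (log2 change -0.86, SE 0.19, adjusted p = 0.000666). Only 1 forced air array reached the untreated range there, and the same was true of Ms4a1, which encodes CD20 (-0.68, adjusted p = 0.0189), of the transcription factor Spib (-0.71, adjusted p = 0.0131), of Pou2af1, a coactivator of octamer factors, (-0.63, adjusted p = 0.0117) and of the signalling adaptor Bank1 (-0.58, adjusted p = 0.0464). With the ratios as covariates the adjusted p was 0.0244 for H2-Ob, 0.0471 for Spib, 0.055 for Ms4a1, 0.0663 for Pou2af1 and 0.111 for Bank1. Leaving out forced air replicate 3 ended the calls of Ms4a1, Spib and Pou2af1 (adjusted p = 0.0862, 0.0602 and 0.0583), leaving out untreated replicate 5 ended that of Ms4a1 (0.0788), and the call of Bank1 was lost without any 1 of 9 arrays (up to 0.157). Btla, an inhibitory receptor of B and T cells, fell by 0.91 (SE 0.20, adjusted p = 0.00101).

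Other lymphoid genes gave fewer calls. Of 25 T cell and natural killer cell markers 2 fell (8.0%, below the share over all genes), Klrd1, a receptor of natural killer cells, by 0.63 (SE 0.13, adjusted p = 0.000506) and the cytokine receptor Il7r by 0.26 (adjusted p = 0.042, and 0.228 with the ratios). Leaving out untreated replicate 2, 4 or 5 or forced air replicate 3 or 5 left 1 of these calls. Of 8 thymus and lymph node markers 3 fell (37.5%), 2 with the ratios and 5 without untreated replicate 2. The largest of these changes was that of Dntt, the DNA polymerase of developing lymphocytes, with 10.7, 13.9 and 25.1 in forced air lungs, against 15.7, 23.02 and 245 in untreated lungs (log2 change -0.98, SE 0.25, adjusted p = 0.00377). It came from untreated replicates 4 and 5, at 110.1 and 245, while the other 4 untreated arrays lay within or close to the forced air range. Without untreated replicate 5 the change of Dntt was -0.56 (adjusted p = 0.0243), and within the title ranges it was -0.22 and -1.10. Clec2i, a lectin-like gene of immune cells, fell by 0.88 (adjusted p = 0.00453, and 0.0528 with the ratios), with 3 of the 6 forced air arrays below all untreated arrays.

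Inflammatory genes gave few calls. Of 18 acute phase genes and inflammatory cytokines 0 were called and 1 had an unadjusted p under 0.05. Saa3, an acute phase protein made in the lung, gave 0.04 (adjusted p = 0.948, and -0.02 with the ratios) and the macrophage elastase Mmp12 by 0.10 (adjusted p = 0.813), neither called. Of 25 chemokines Ccl6 (0.24, adjusted p = 0.0283, 0.09 with the ratios, adjusted p = 0.467, and -0.04 on its more variable probe set, so that its direction is not settled) and Cxcl16 (0.22, adjusted p = 0.0111, and 0.0591 with the ratios) were called higher (8.0%, below the share over all genes), and with the ratios as covariates 0 were called, with 1 without untreated replicate 1, 3 or 4 or forced air replicate 4 or 6. Of 22 interferon response genes 1 rose (4.55%) and 3 fell (13.6%), the falls near the share over all genes. Ifit3 rose by 0.46 (adjusted p = 0.000515), while Rsad2 fell by 0.54, Ifit2 by 0.36 and Usp18 by 0.31, of which Usp18 kept its call with the ratios (adjusted p = 0.0341) and Rsad2 and Ifit2 did not (0.149 and 0.0774). The fall of Rsad2 was 0.36 without forced air replicate 4 (adjusted p = 0.14) and lost its call without any 1 of 4 arrays. Marco, a scavenger receptor of alveolar macrophages, had 54.3, 83.1 and 106 in forced air lungs, against 30.95, 43.5 and 51.6 in untreated lungs, with all forced air arrays above all untreated ones (log2 change 0.77, SE 0.19, adjusted p = 0.00208). It was the largest of 4 rises among 17 alveolar macrophage markers (23.5%, and 2 rises or 11.8% with the ratios). Cx3cr1, a chemokine receptor of monocytes and interstitial macrophages, fell by 0.53 (adjusted p = 0.0133, and 0.0665 without untreated replicate 5), and Ltf, lactoferrin of neutrophil granules and airway glands, fell by 0.71 (adjusted p = 0.0227, and 0.0623 with the ratios, 0.052 without untreated replicate 3 and 0.0642 without forced air replicate 6).

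Among alveolar epithelial genes more rose than fell, and several lost the call once RNA integrity entered the fit. Of 18 alveolar type 1 markers 8 rose (44.4%) and 2 fell (11.1%), and 4 rose (22.2%) and 2 fell with the ratios as covariates. Aqp5, the water channel of these cells, had 1269.8, 1398 and 1624 in forced air lungs, against 891, 1001 and 1102 in untreated lungs, without overlap (log2 change 0.51, SE 0.07, adjusted p = 1.54e-06). Ager, their receptor for glycated proteins, had 2211, 2340.5 and 3890.0 in forced air lungs, against 1713, 1928 and 2299.5 in untreated lungs, with overlap (log2 change 0.39, SE 0.13, adjusted p = 0.0229). Its change was 0.12 with the ratios as covariates (adjusted p = 0.515), and its highest value belonged to forced air replicate 6, the array with the highest Gapdh ratio and the lowest share of probe sets present among the 12. Without that array the change of Ager was 0.27 (adjusted p = 0.111), and its call was also lost without forced air replicate 4 (0.0503) or untreated replicate 5 (0.0611). Igfbp6 rose by 0.56 (SE 0.11, adjusted p = 0.0004) and Rtkn2, a signalling protein of type 1 cells, by 0.32 (SE 0.05, adjusted p = 1.95e-05). The basement membrane collagens Col4a4 and Col4a3 fell by 0.34 and 0.17, the call of Col4a3 being lost without any 1 of 9 arrays (adjusted p up to 0.137).

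Of 17 type 2 and surfactant genes 3 rose (17.6%) and 1 fell (5.88%), and with the ratios 0 rose and 1 fell. Sftpc, which encodes surfactant protein C, rose by 0.25 (adjusted p = 0.0387) and its change was 0.06 with the ratios (adjusted p = 0.631) and 0.15 without forced air replicate 6 (adjusted p = 0.21), where 7 of the 12 arrays could not be left out without losing the call. Leaving out untreated replicate 1, 4 or 5 or forced air replicate 4 or 6 brought the rises of this list to 1 or 0. Abca3, the lipid pump of the surfactant store, fell with no overlap. Its signals were 859.6, 986 and 1011 in forced air lungs, against 1054, 1122 and 1463 in untreated lungs (log2 change -0.26, SE 0.06, adjusted p = 0.000735), and the fall was as large with the ratios (-0.29). Scgb1a1, the main secretion of club cells, was not called (0.11, adjusted p = 0.26, and 0.05 with the ratios). Cbr2, a reductase of the same cells, rose by 0.34 (adjusted p = 0.00553, and 0.16 with the ratios, adjusted p = 0.112). Of 24 ciliated cell markers 2 rose and 2 fell (8.33% each, below the shares over all genes), with 0 called with the ratios as covariates and 1 or 2 in all without untreated replicate 3, 4 or 5 or forced air replicate 4.

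In vessels and muscle, Aplnr, the apelin receptor of capillary endothelium, had 689, 814 and 907 in forced air lungs, against 999, 1191 and 1378 in untreated lungs, without overlap (log2 change -0.54, SE 0.10, adjusted p = 0.000167, and -0.35 with the ratios). Of 23 endothelial markers 4 rose (17.4%) and 1 fell (4.35%), with 2 rises (8.7%) with the ratios and also 2 without forced air replicate 3 or 4 or untreated replicate 5. Pecam1, an adhesion protein of all endothelium, was among the rises (0.21, adjusted p = 0.0158, and 0.14 with the ratios, adjusted p = 0.182), and its call was lost without untreated replicate 2 (0.0513) or forced air replicate 4 (0.0628). The endothelial rises kept with the ratios were those of Car4 and Cyp1a1. Car4 is also counted among the alveolar macrophage rises, and Cyp1a1 among the targets of the aryl hydrocarbon receptor. Notch3, a receptor of pericytes and arterial smooth muscle, fell without overlap, with 351, 396 and 497 in forced air lungs, against 506, 591 and 657 in untreated lungs (log2 change -0.54, SE 0.08, adjusted p = 3.81e-06). Of 17 genes of smooth muscle and pericytes 3 rose and 3 fell (17.6% each), but 0 rose and 1 fell with the ratios, 0 rose and 2 fell without the 4 arrays of high Gapdh ratio, and 1 rose and 2 fell without forced air replicate 1. Heart muscle genes can reach lung tissue through the muscle sleeves of pulmonary veins or through dissection. Tcap, a protein of the sarcomere, had 120.5, 179 and 240.1 in forced air lungs, against 41.9, 83.1 and 110.4 in untreated lungs, without overlap (log2 change 1.06, SE 0.22, adjusted p = 0.000506). Of 20 cardiac and striated muscle markers 2 rose (10%, near the share over all genes), Tnni3 (0.63) and Mybpc3 (0.41), and 0 were called with the ratios as covariates (adjusted p = 0.105 and 0.124) or without untreated replicate 2. Leaving out forced air replicate 2, 3, 4 or 5 or untreated replicate 1 or 5 left 1. The summed signal of that list was 5493 to 7915 in forced air lungs, against 3623 to 6001 in untreated lungs. Called or not, 17 of the 20 markers were higher and 3 lower in forced air lungs, against 6579 higher and 8451 lower of 15030 genes tested. Markers of 1 tissue can move together, so they are not separate observations. Their median change was 0.33 (0.37 with the ratios), against -0.03 (-0.02 with the ratios) over all genes tested. Hamp, the hormone hepcidin, which heart muscle also makes, rose by 0.82 (SE 0.29, adjusted p = 0.0336), with 1.12 and 0.13 within the ranges, 0.0536 as the adjusted p with the ratios and a call that was lost without any 1 of 5 arrays (up to 0.095). The part of heart tissue in these changes was not tested. Of 15 adipocyte and 10 erythroid markers 0 were called, with 2 and 1 at an unadjusted p under 0.05.

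Genes of energy metabolism moved by small amounts. Of 29 oxidative phosphorylation genes 18 rose (62.1%) and 0 fell, with a median change of 0.19, and 7 rose (24.1%) with the ratios as covariates and 11 without the 4 arrays of high Gapdh ratio. The median change was 0.12 with the ratios and 0.20 without those 4 arrays. Sdhc, a subunit of succinate dehydrogenase, had 513, 536 and 598 in forced air lungs, against 398, 413 and 449 in untreated lungs, without overlap (log2 change 0.38, SE 0.08, adjusted p = 0.000265). Ndufb5 of complex I rose by 0.37 (0.22 with the ratios and 0.36 without the 4 arrays). Cox8a of cytochrome oxidase rose by 0.36 (0.20 with the ratios, adjusted p = 0.0993, and 0.39 without the 4 arrays). Of 22 genes of glycolysis and hypoxia 5 rose (22.7%) and 1 fell (4.55%), and 3 rose (13.6%) and 1 fell with the ratios. The glycolytic enzyme genes Pgk1 and Tpi1 kept their calls with the ratios, Pgk1 rising by 0.32 (SE 0.04, adjusted p = 5e-07) and Tpi1 by 0.26 (SE 0.05, adjusted p = 6.47e-05). Adm, the vasodilator adrenomedullin, fell by 0.63 (SE 0.15, adjusted p = 0.00148). Of 21 genes of fatty acid oxidation 3 fell (14.3%, near the share over all genes), and 1 with the ratios or without forced air replicate 4. The falls included the thioesterase Acot1 by 0.64 (adjusted p = 0.00034) and Cpt1a, the gate for fatty acids into mitochondria, by 0.59 (adjusted p = 0.0278, and 0.255 with the ratios, 0.088 without forced air replicate 4 and 0.0898 without untreated replicate 5). Of 20 NRF2 target and glutathione genes 8 rose (40%) and 5 (25.0%) with the ratios, led by the glutathione transferase Gsta3, with 1148, 1206 and 1256 in forced air lungs, against 747, 826 and 1082 in untreated lungs and no overlap (log2 change 0.48, SE 0.09, adjusted p = 0.00019). Cyp1a1, the enzyme induced through the aryl hydrocarbon receptor, rose by 0.63 (SE 0.20, adjusted p = 0.0167, and 0.0791 without forced air replicate 3 or 0.0786 without untreated replicate 5), whereas its relative Cyp1b1 fell by 0.41 (adjusted p = 0.00332). The receptor gene Ahr fell by 0.28 on its brightest probe set (adjusted p = 0.000549) and gave 0.08 on the more variable one. Fabp1, a fatty acid binding protein, was not called (0.12, adjusted p = 0.563, and 0.19 with the ratios).

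Several of the largest changes lay outside these lists. Ces1g, a carboxylesterase, had 77.7, 97.9 and 109.8 in forced air lungs, against 33.7, 41.1 and 51.5 in untreated lungs, without overlap (log2 change 0.97, SE 0.11, adjusted p = 1.51e-08, and 0.99 and 0.89 within the ranges). Chia1, the acidic chitinase of lung and stomach, had 678, 802 and 1011 in forced air lungs, against 392, 459 and 518 in untreated lungs, also without overlap (log2 change 0.83, SE 0.10, adjusted p = 2.79e-08). Ndnf, a secreted growth factor, was separated between the groups as well, with 598, 636 and 887 in forced air lungs, against 359.6, 375 and 469 in untreated lungs (log2 change 0.78, SE 0.08, adjusted p = 2.82e-10). Igfbp2, a binding protein of insulin-like growth factors, rose by 0.70 (SE 0.11, adjusted p = 4.45e-06). Ubl5 gave opposite results on its probe sets, 0.84 on the brightest (0.53 with the ratios, adjusted p = 0.236) and -0.27 on the other, and has no settled direction. Among the falls, Fam124b had 5.62, 10.5 and 13.3 in forced air lungs, against 17.4, 54.6 and 113.5 in untreated lungs, without overlap and with 5 of the 6 forced air arrays called present (log2 change -1.49, SE 0.19, adjusted p = 1.16e-07). Avpr1a, a vasopressin receptor, had 13.2, 16.7 and 23.5 in forced air lungs, against 34.6, 41.7 and 79.4 in untreated lungs, with no overlap (log2 change -0.93, SE 0.11, adjusted p = 3.34e-08). Slc5a8, a transporter of short fatty acids, fell by 0.89, Cttnbp2, which binds cortactin, by 0.89 and Pax9, a developmental transcription factor, by 0.79. Their within-range changes were -0.97 and -0.70 for Slc5a8, -0.77 and -0.81 for Cttnbp2 and -0.84 and -0.69 for Pax9.

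The later forced air groups, also of 6 arrays each, show how far the levels of the clock and matrix genes after 2 weeks were shared by mice exposed for 12 and 24 weeks. All comparisons with untreated lungs use the same 6 untreated arrays, so levels are set side by side, and the later times were tested directly against 2 weeks. These direct tests share the 2-week arrays with the main comparison. For genes named by their change on those arrays, some return towards the untreated level can come from that choice alone. Arntl averaged 112.3 ± 47.8 in untreated lungs, 22.4 ± 4.26 after 2 weeks, 28.3 ± 4.14 after 12 weeks and 38.6 ± 8.30 after 24 weeks (signal, SD, n = 6 each). Clock averaged 554 ± 64.7, 341 ± 19.2, 355 ± 25.8 and 489 ± 13.5 at the same times, and was higher at 24 than at 2 weeks (difference 0.50, SE 0.06, limma adjusted p = 2.88e-09). Dbp averaged 486 ± 146, 948 ± 87.1, 1009 ± 103 and 583 ± 78.6, and was lower at 24 than at 2 weeks (difference -0.69, SE 0.14, adjusted p = 0.00012). Per2 averaged 368 ± 99.9, 702 ± 46.0, 666 ± 69.0 and 823 ± 97.8, and neither later time was called against 2 weeks. Lung elastin averaged 316 ± 71.02, 129.9 ± 7.33, 161 ± 27.2 and 201 ± 36.8, and Lox 494 ± 73.3, 229.7 ± 34.3, 257 ± 39.7 and 415 ± 71.9. At 24 weeks Eln was 0.56 and Lox 0.80 higher than at 2 weeks (adjusted p = 3.48e-05 and 2e-08). Hspe1 averaged 782 ± 119.7, 1157 ± 103, 823 ± 102 and 948 ± 117.1, with differences from 2 weeks of -0.49 at 12 weeks (adjusted p = 0.000776) and -0.29 at 24 weeks (adjusted p = 0.00626). Of 32 clock and matrix genes looked at 1, Col6a3, was called at 12 weeks against 2 weeks, where 7.77% of all genes were called, and 17 at 24 weeks, where 40.6% were. With the ratios as covariates 9 of the 17 kept their call at 24 weeks. Sphk2 and Fbln5, whose probe sets disagreed in the main comparison, are among these 9. The Gapdh ratio was 1.58 to 2.42 after 12 weeks and 1.46 to 1.53 after 24 weeks, so that RNA integrity also differed between these groups.

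**Figure D5:**
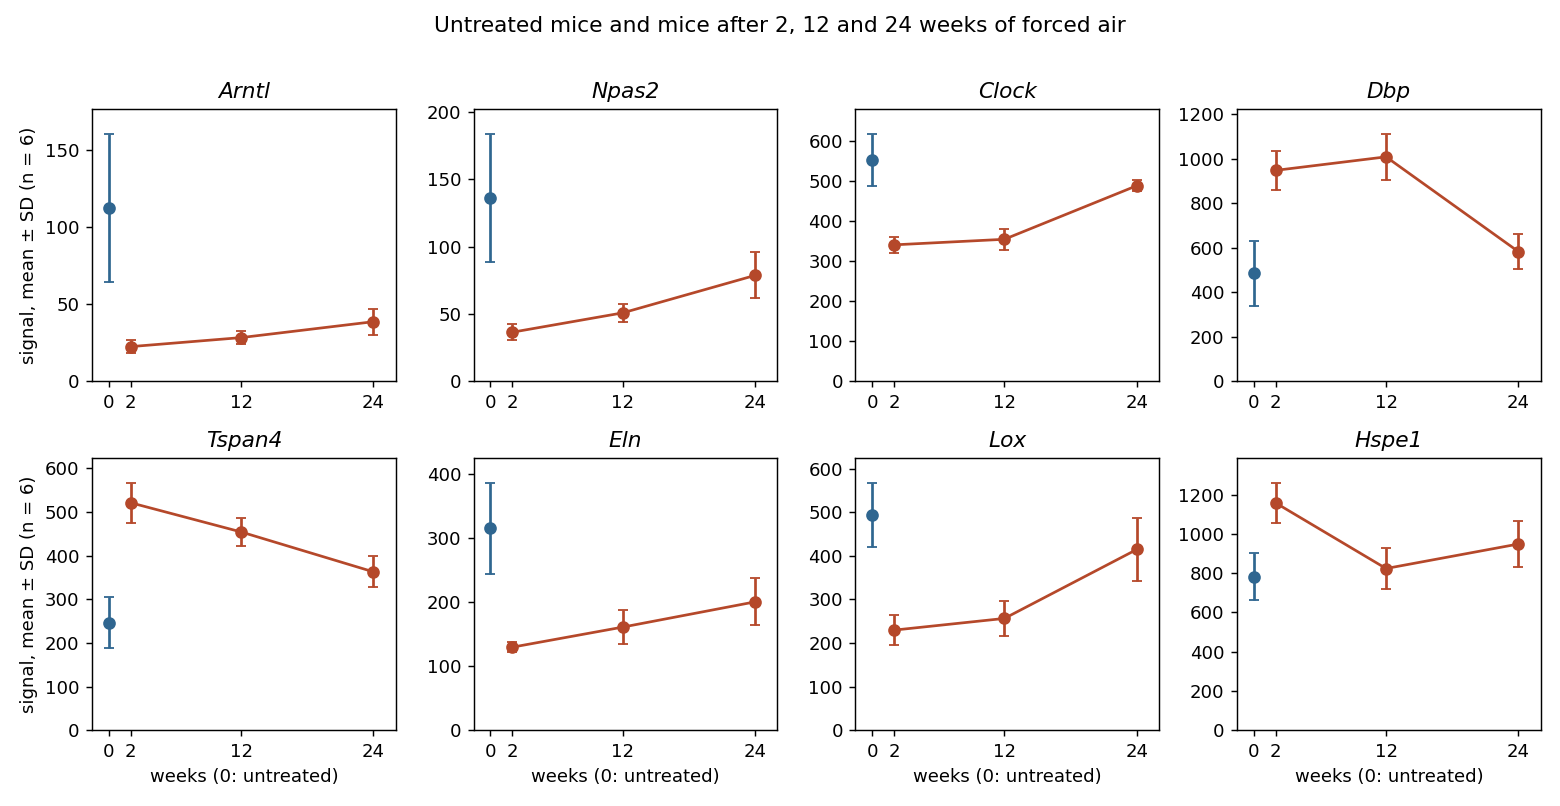
Mean MAS5 signal with bars of 1 SD over 6 arrays for untreated mice (at 0 on the x axis) and after 2, 12 and 24 weeks of forced air, for 8 genes on linear axes that start at 0. Arntl and Npas2 stay well below the untreated mean at each time, whereas Clock, Dbp and Lox at 24 weeks lie closer to untreated than to 2 weeks.

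Smoke for 2 weeks, the other group of the same duration and also of 6 arrays, gives the levels of the leading genes side by side. Against untreated lungs 12.0% of all genes were called in smoke lungs, 5.85% being higher. The change in smoke lungs was -1.56 for Arntl, -1.17 for Npas2, 0.92 for Per2 and 0.87 for Tspan4, against changes in forced air lungs of -1.66, -1.49, 0.94 and 1.06. For Eln and Lox it was -0.56 and -0.20, against -1.16 and -1.05 in forced air lungs, and in a direct test, in which 9.12% of all genes were called, smoke lungs were higher than forced air lungs by 0.60 for Eln (adjusted p = 5.62e-05) and 0.85 for Lox (adjusted p = 1e-08). That test uses the same forced air arrays that gave the falls and was chosen after the values were seen. It is therefore no separate support for the falls, and part of the difference can come from that choice. Smoke lungs gave 3.95 for Saa3, 2.77 for Mmp12 and 2.61 for Marco relative to untreated lungs, where forced air lungs gave 0.04, 0.10 and 0.77. Of the 18 acute phase genes and cytokines 11 rose in smoke lungs and 0 in forced air lungs, each against the same untreated arrays. The Gapdh ratio of the smoke arrays was 1.54 to 1.71.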

How the data were processed

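The 12 arrays were compared within a series of 53. Per the submitters' processing notes the signals were made with MAS5, and each array's deposited signal is an intensity on a linear scale whose trimmed mean over the probe sets was 150.0 on every array. A detection p-value per probe set was also deposited, and the version of MAS5 is not given in the sources used here. Signals were turned into log2(signal + 16). Probe sets with a detection p below 0.05 on 50% or more of the arrays in any group, 35615 of 45101, were kept, and the brightest kept probe set stood for each of 15030 genes. The platform table gave a single gene symbol to 34945 probe sets, more than 1 to 932 and no symbol to 9160.

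Group means over all 53 arrays were fitted with limma 3.58.1 in R 4.3.3 (lmFit, eBayes with trend, two-sided, Benjamini-Hochberg over all 15030 genes), a gene being called at an adjusted p under 0.05. The fit was tested on simulated data. Ratios and shares of single arrays were compared by exact permutation tests in scipy 1.17.1. The number of arrays limits the precision, and arrays carry no read depth.

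The comparison, its gene lists and its named genes were chosen with earlier results of these data known, so the lists were described by counts beside all genes and were not tested as sets. Named genes were the 15 largest rises and 15 largest falls with a gene name, up to 5 called members of each of 35 lists and a panel of 30 genes, of which Rbm3 is not analysed here, and the text gives those that best show each group. Chosen after their values were seen were Cry2, Nr1d2, Wee1, Bhlhe40, Coq10b, Nfil3, Col14a1, Col15a1, Col6a3, Tcf21, Mfap4, Fbln5, Dnaja1, Hspd1, Vpreb3, Col4a3 and Igfbp2, as were the direct test of smoke against forced air and the correlations among untreated arrays. The alternatives tried were no detection filter, a pseudocount of 1, quantile normalization, only the compared groups, other choices of probe set, the title number, the 3′/5′ ratios and leaving out each array.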

Additional observations from a re-analysis of the deposited data

Results flagged for a closer look

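Of 244 sets of 6 values examined, for the named genes and the array measures, 24 (9.84%) held an array that stood far from the other 5 of its group, where chance gives about 1 in 20. Untreated replicate 2 accounted for many of these. It had the highest Gapdh 3′/5′ ratio of its group (1.972), the highest actin ratio (2.877) and the lowest median signal (31.35), and it was the high array for Abca3 (1463), Cbr2 (2456) and Ndufb5 (1123) and the low array for Pdia4 (76.75), Mybpc3 (10.5) and Tpi1 (470.0). Forced air replicate 6, which had the highest Gapdh ratio of the 12 arrays, was the high array for Ager (3890.0), Sftpc (4918), Cbr2 (3644) and Nr1d2 (1956) and the low array for Pdia4 (161.5). The part of RNA integrity in these values was not tested.

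Untreated replicate 4 was the low array for Dbp (233), Cirbp (177.2) and Slc5a8 (20.27) and the high array for Manf (736.3), and it also held the highest Arntl signal of its group. Untreated replicate 5 was the high array for Ms4a1 (568.9) and Klrd1 (324.3) and the low array for Igfbp2 (308.8), and it held the highest signal of Dntt. Single arrays apart from these were forced air replicate 4 for Loxl1 (236.2), forced air replicate 2 for Abca3 (859.6) and untreated replicate 1 for Col1a1 (567.6).

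Clock and matrix genes whose level after 24 weeks of forced air differed from that after 2 weeks in the limma fit were recorded with the size of that difference. The 2-week arrays are the same as in the main comparison. Higher at 24 weeks were Arntl (0.50, adjusted p = 0.00558), Npas2 (0.84, adjusted p = 5.12e-06), Clock (0.50, adjusted p = 2.88e-09), Cry2 (0.22), Eln (0.56), Lox (0.80, adjusted p = 2e-08), Col1a1 (0.45), Col14a1 (0.42), Col15a1 (0.28) and Adamts4 (0.47, adjusted p = 0.0405). Lower at 24 weeks were Dbp (-0.69, adjusted p = 0.00012), Tef (-0.28), Tspan4 (-0.50, adjusted p = 8.19e-06), Sphk2 (-0.81), Loxl1 (-0.37), Mfap4 (-0.23) and Fbln5 (-0.35). The values of Sphk2 and Fbln5 are those of their brightest probe sets. Their probe sets disagreed in the main comparison, so no direction is given for either gene. At 12 weeks Col6a3 was lower than at 2 weeks (-0.32, adjusted p = 0.0225). The Gapdh ratio was 1.61 to 2.08 after 2 weeks and 1.46 to 1.53 after 24 weeks. With both ratios as covariates 9 of the 17 differences at 24 weeks were called.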

How the results depend on the processing

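The number of genes called in forced air against untreated lungs moved by more than 1.5 times in 7 settings. It was 6198 over all kept probe sets, 282 within the middle range of title numbers, 824 within the highest range, 1557 with both 3′/5′ ratios as covariates and 10 with a log2 change of at least 1 as a further condition, against 3491. In settings chosen after seeing the data it was 1554 without the 4 arrays whose Gapdh ratio exceeded 1.9, and 3 with the ratios as covariates and only these groups in the fit. With only these groups in the fit and no covariate it was 2799. Smaller sets of arrays and added covariates leave fewer degrees of freedom by construction. How much of each drop comes from this was not tested, nor was any other cause. Leaving out each array in turn gave 2494 (without forced air replicate 4) to 3893 (without untreated replicate 2). Quantile normalization moved the share of higher calls from 46.7% to 54.4%, and leaving out the 4 arrays from 46.7% to 57.5%, and the highest range alone gave 29.4%. Forced air at 24 against 2 weeks gave 6109 calls and 4045 with the ratios, and at 12 against 2 weeks 1168, of which 619 were higher, or 404 of 1043 (38.7%) after quantile normalization. Smoke at 2 weeks against untreated gave 1802 calls. Over the arrays left out, the difference in Gapdh ratio ran from 0.1785 to 0.2971, in actin ratio from 0.0482 to 0.3096 and in percent present from -1.2184 to -0.2623.

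Of the changes of 118 named genes under all settings 2467 kept direction and call, 443 lost the call, 10 gained it and 30 turned. For the log2 change of Per1 the value was -0.1196 within the middle range. The log2 change of Nr1d1 was -0.0008 with the title number as covariate, -0.0129 with its ranges as a block and -0.1085 to 0.1046 over arrays left out. Within the middle range the log2 change of Hspa1a was -0.0040, the log2 change of Zbtb16 -0.0496 and the log2 change of Egr1 0.1171. The log2 change of Saa3 was -0.0458 within the highest range, -0.0197 with the ratios and -0.0385 to 0.1511 over arrays left out, and the log2 change of Mmp12 was -0.1242 within the highest range and -0.0122 to 0.2315 over arrays left out. With the ratios and only these groups in the fit, Mmp12 gave -0.0115, Zbtb16 -0.0807, Rsad2 0.0871 and Scgb1a1 -0.0843. Without the 4 arrays Zbtb16 gave -0.0771 and Scgb1a1 -0.0088, and after quantile normalization Scgb1a1 gave -0.0622. On the more variable probe set Fbln5 gave -0.1226, Ccl6 -0.0409 and Ahr 0.0841. Of the counts per gene list 616 stayed within 1.5 times of the value given and 259 moved by more. No paired analysis was possible because the labels give the arrays no replicate numbers that the groups share. A signal near background, as that of Spon2 on the 3 forced air arrays without a present call, limits the size of a change that can be seen.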
